A study of Mus musculus with 4 samples.

Results

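The response of Chd7 knockout G1ER cells to 24 h of beta-estradiol was read from 2 of the 4 RNA-seq libraries of a study of the chromatin remodeler CHD7, a helicase with chromodomains, in mouse erythroblasts. The knockout library at 24 h was set against the knockout library at 0 h, with 1 library a side. Of the 23936 gene symbols in the table, the 8964 that averaged 1 FPKM or more across the 4 libraries were described (FPKM, fragments scaled to transcript length and to the mapped fragments of the library, so that levels of different genes are compared per length). G1ER is an erythroblast line made from mouse cells without a working Gata1 gene of their own, into which a fusion of GATA1 with the ligand-binding domain of the estrogen receptor was introduced. The 4 groups were Chd7-/- cells at 24 h, Chd7-/- cells at 0 h, wild-type cells at 24 h and wild-type cells at 0 h, and all of them carried the fusion and were grown with EPO (2 U/mL), 16% FBS and conditioned medium with SCF, the ligand of the receptor KIT. All 4 libraries have estradiol as their treatment label, so time was taken from the titles. Whether the knockout line is 1 clone or several is not given in the sources used here, and an effect of the line itself cannot be told apart from that of the genotype. With no replicates there are no p-values here, and the values below describe these libraries.

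GATA1 is the transcription factor that drives red cell maturation. In G1ER cells the fusion protein stays inactive until estradiol binds it, and then occupies sites with the core GATA in erythroid genes. The proteins of the mature red cell are then made: globin chains, the enzymes of the heme that the globins carry, the mitochondrial carriers that feed heme synthesis, and the anion exchanger and spectrin network of the membrane. GATA2, a related factor of progenitors and mast cells, is replaced by GATA1 at many sites, its own gene included. Maturing erythroblasts also slow down their growth, and they lose KIT, through which SCF acts.

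Chd7 was listed at 0 FPKM in all 4 libraries. Genes that most cells use, such as Hmgcs1 and Insig1, were listed at 0 in all 4 libraries as well, so a listed 0 cannot be read as absence and Chd7 could not serve to check the knockout. FPKM steps of low genes gave approximate depths of 15.9 M and 14.75 M fragments for the knockout at 24 h and 0 h, and of 17.65 M and 15.05 M for wild type. The sum of all FPKM was 753591 in the knockout at 24 h, against 1604981 at 0 h, and 780536 and 923195 in wild type. Small RNA and predicted loci held 34.1% of the sum in the knockout at 24 h and 69.6% at 0 h, where the snoRNA gene Snord49a alone held 33.9%. Since FPKM is scaled to length, these are shares of summed FPKM and not of RNA. Without these loci the sums were 496875 at 24 h and 487418 at 0 h. A ratio taken on TPM, a scale that gives every library the same sum, is therefore shifted, with an all-gene median log2 ratio of 0.83, against -0.12 as deposited. Directions below are those of the deposited FPKM. For this reason list medians below are to be read against the all-gene median, -0.12 as deposited and 0.83 on TPM scaling. A change of sign on TPM scaling is not by itself a change relative to all genes.

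The marker genes Hbb-b1, Csf2rb and Gata2 were given with the comparison, so their levels describe it and do not check its label. Hbb-b1, an adult beta-globin gene, stood at 13127 FPKM at 24 h, against 528 FPKM at 0 h (log2 ratio of FPKM + 1, 4.63, as are the values in parentheses after other levels). Csf2rb (chr15:78325800-78351001, GRCm38), which encodes the common beta chain of the receptors for IL-3, IL-5 and GM-CSF, stood at 138 FPKM at 24 h, against 4.63 FPKM at 0 h (4.63). Gata2 (chr6:88193891-88207032) stood at 2.40 FPKM at 24 h, against 23.0 FPKM at 0 h (-2.82). Hbb-b1 and Csf2rb were thus high in the 24 h library and Gata2 in the 0 h library. Of 6 erythroid markers (Slc4a1, Alas2, Klf1, Tfrc and Epor among them) all were above 0 FPKM in both knockout libraries, though Slc4a1 stood at only 0.235 FPKM at 0 h. They summed to 991 FPKM at 24 h, against 389 FPKM at 0 h, of which Tfrc alone made 516 and 292 FPKM. Of 7 mast cell and basophil markers, the protease genes Mcpt8, Mcpt4 and Tpsb2 were at 0 in both libraries. Their sum was 1.30 FPKM at 24 h, against 44.1 FPKM at 0 h. Nearly all of the 0 h sum came from Cpa3 (24.6 FPKM) and Ms4a2 (19.4 FPKM), so it speaks for these genes and not for the set. The myeloid markers Mpo, Elane and S100a8 and all 4 lymphoid markers (Cd3e, Cd79a and Ms4a1 among them) were at 0 in both. The 5 measured myeloid markers summed to 1.52 FPKM at 24 h, against 4.82 FPKM at 0 h, nearly all from Lyz2 (1.48 and 4.78 FPKM). The 5 megakaryocyte markers, with Gp1bb and Ppbp at 0, summed to 5.36 FPKM at 24 h, against 5.44 FPKM at 0 h. The 3 eosinophil markers summed to 60.3 FPKM at 24 h, against 3.29 FPKM at 0 h. Most of that came from Prg2 at 24 h (49.7 FPKM) and from Prg3 at 0 h (2.88 FPKM). In bulk RNA, fewer cells of a type and less RNA per cell cannot be told apart, and the part of other cells in the results was not tested.

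Of the 8964 genes, 303 were at least 2-fold higher at 24 h (3.38%, a log2 ratio of FPKM + 1 of at least 1) and 326 were at least 2-fold lower (3.64%), or 7.02% in all. Most genes thus lay within 2-fold. Each count of list members below is to be read beside these shares, and few or no calls in a short list lie near them. The median log2 ratio was -0.12, the 5th and 95th percentiles were -0.90 and 0.83, and 71.2% of the genes lay within 0.5 of 0. Higher genes made up 48.2% of those beyond 2-fold. That share was 63.9% with ratios centred on their median, 60.1% with upper-quartile scaling, 98.7% on TPM scaling and 59.4% with a pseudocount of 5 FPKM. Leaving out the 583 small RNA and predicted loci, 277 of 8381 genes were higher (3.31%) and 296 lower (3.53%), or 6.84% in all. Genes averaging 100 FPKM or more were more often among the higher (3.73% of 616) than among the lower (1.62%), whereas genes averaging 1 to 5 FPKM were more often among the lower (4.67% of 1928, against 3.01% higher). Counting error alone gives a 95% half-width of 0.36 for a log2 ratio of FPKM + 1 at 1 FPKM on a 2-kb transcript, 0.27 at 5 FPKM, 0.15 at 20 FPKM and 0.072 at 100 FPKM, and does not cover the spread between cultures.

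**Figure D1:**
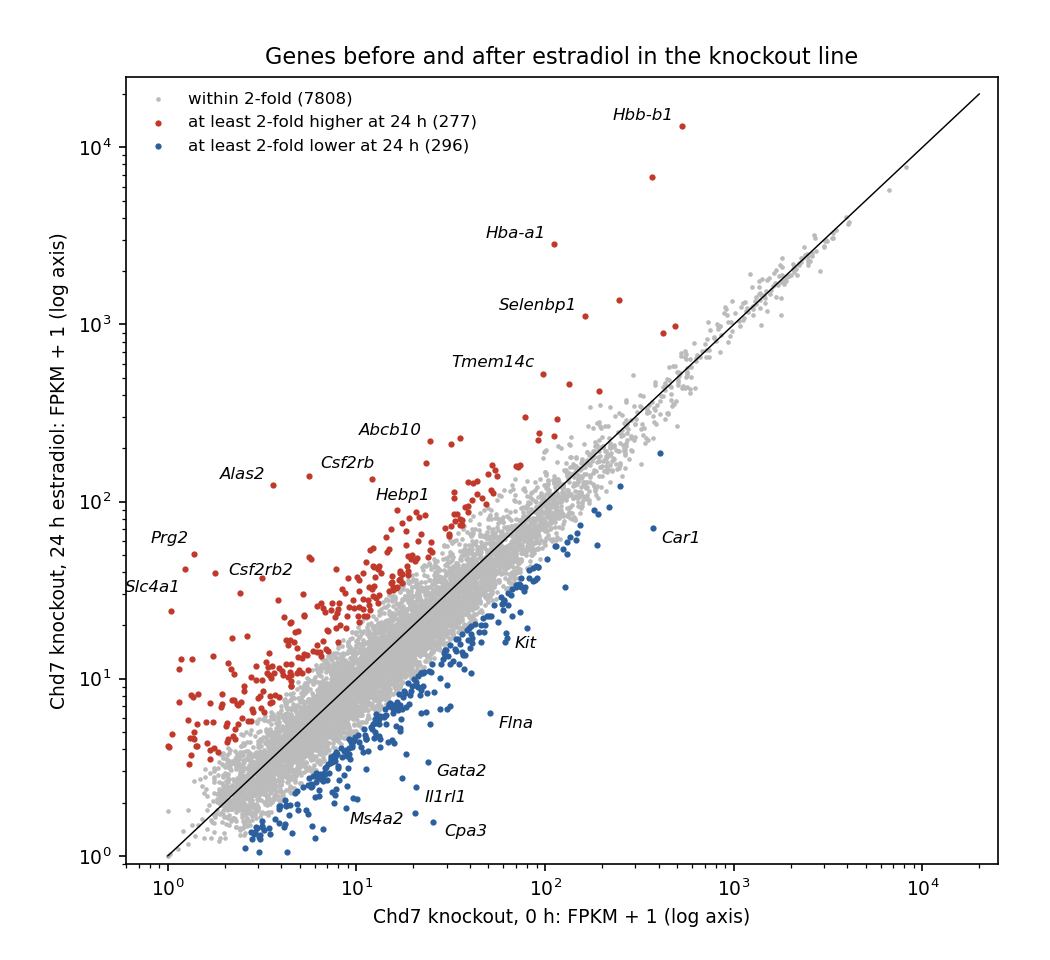
Level of each tested gene (FPKM + 1) in the Chd7 knockout at 24 h of estradiol (vertical log axis) against 0 h (horizontal log axis), small RNA and predicted loci left out. Points are genes, the line marks equal levels, 277 genes (red) were at least 2-fold higher and 296 (blue) at least 2-fold lower at 24 h; Hbb-b1 lies at the top and Cpa3 and Ms4a2 at the lower edge.

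The 15 genes most higher at 24 h, among those with at least 5 FPKM in one of the knockout libraries, had log2 ratios between 3.26 and 5.19. They were, in falling order, Prg2, Alas2, Slc4a1, Hba-a1, Hbb-b1, Csf2rb, Tmem184a, Csf2rb2, Hbb-b2, Pdia2, Ache, Hebp1, Dmtn, Slc38a5 and Tulp2. Alas2, Slc4a1, Hba-a1, Hbb-b1, Hbb-b2, Hebp1 and Dmtn among them belong to hemoglobin, heme and the red cell membrane. Prg2 (chr2:84980461-84983632), which encodes the major basic protein of eosinophil granules, led the list with 49.7 FPKM at 24 h, against 0.384 FPKM at 0 h (log2 ratio 5.19). Pdia2, a protein disulfide isomerase gene, stood at 29.5 FPKM at 24 h, against 1.41 FPKM at 0 h (3.66), and Ache, the acetylcholinesterase gene, at 35.9 FPKM at 24 h, against 2.17 FPKM at 0 h (3.54). Tmem184a and Tulp2 stood at 23.0 and 11.9 FPKM at 24 h, against 0.038 and 0.342 FPKM at 0 h. All 15 were also at least 2-fold higher at 24 h in wild type.

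The 15 most lower genes had log2 ratios between -4.03 and -2.15. They were, from the lowest ratio up, Cpa3, Ms4a2, Il1rl1, Flna, Gata2, Tspan4, Car1, Klf10, Nab2, Mmp8, Vim, Plp2, Tmem44, C2cd4a and Cldn3. The first 3 are genes of mast cells. Car1 (chr3:14766214-14808365), a carbonic anhydrase gene and the most abundant of the 15, stood at 69.7 FPKM at 24 h, against 372 FPKM at 0 h (-2.40). Klf10, a zinc finger repressor gene of the KLF family, stood at 2.75 FPKM at 24 h, against 17.4 FPKM at 0 h (-2.30), and Nab2, a corepressor of EGR factors, at 1.08 FPKM at 24 h, against 9.09 FPKM at 0 h (-2.27). Mmp8, which encodes a collagenase of neutrophils, stood at 0.263 FPKM at 24 h, against 5.04 FPKM at 0 h (-2.26). Of the 15, 13 were also at least 2-fold lower at 24 h in wild type.

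**Figure D2:**
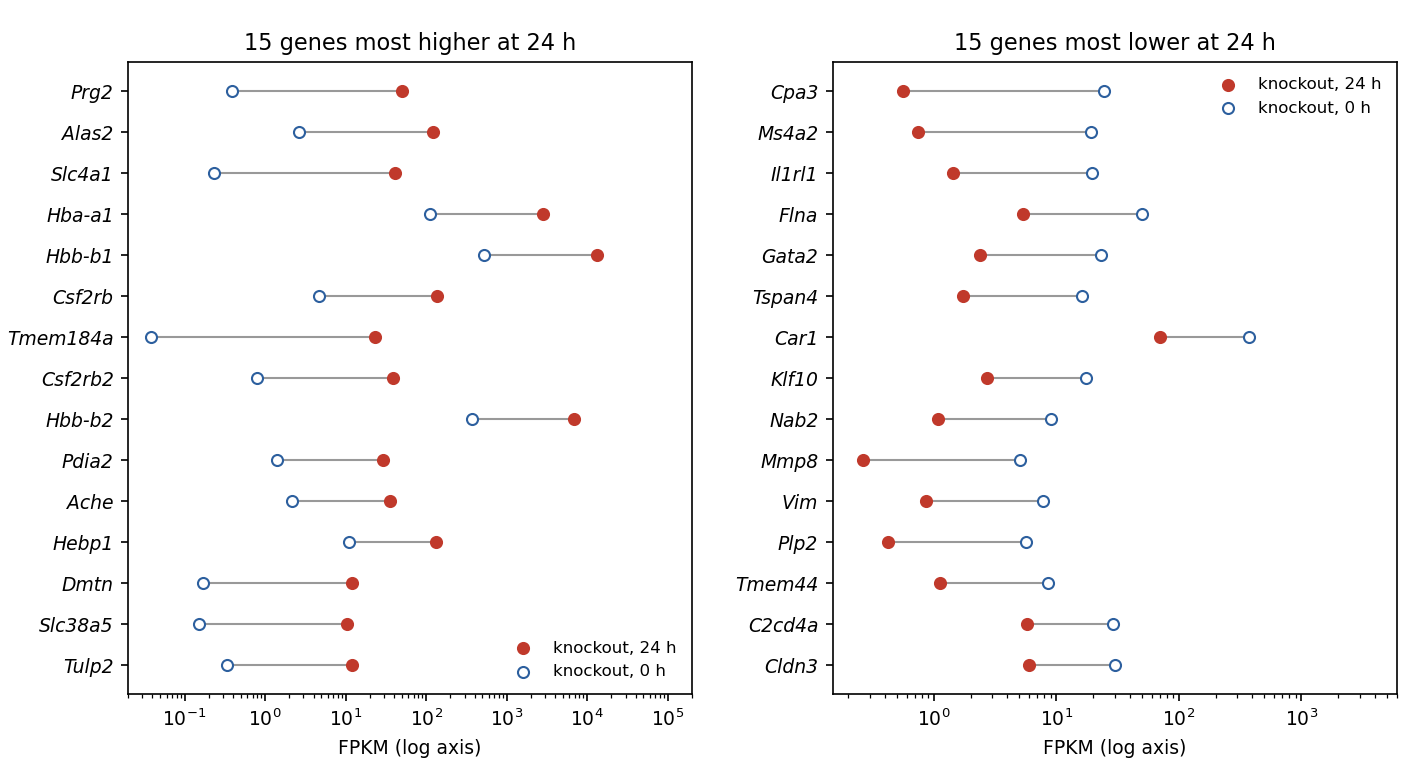
FPKM (horizontal log axis) of the 15 genes most higher (left panel) and the 15 most lower (right panel) in the Chd7 knockout, with 24 h as filled red and 0 h as open blue circles, 1 library each. The highest level is that of Hbb-b1, at 13127 FPKM at 24 h, against 528 FPKM at 0 h, and Cpa3 had the lowest ratio, with 0.56 FPKM at 24 h, against 24.6 FPKM at 0 h.

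Promoter sequences of genes at both ends of the response are given to show where the letters that GATA factors read occur in them. They are the 250 bases upstream of the start site in RefSeq (GRCm38.p6), 5′ to 3′ on the gene's strand, and capitals mark each AGATAA or TGATAA on either strand. Alas2 (chrX:150547167-150547416, plus strand), Hba-a1 (chr11:32283422-32283671, plus), and Csf2rb2 (chr15:78305722-78305971, minus) were among the 15 most higher genes. Gata2, at its 2 promoters (chr6:88193641-88193890 and chr6:88198414-88198663, both plus), and Cpa3 (chr3:20242182-20242431, minus) were among the 15 most lower. The start used is that of the RefSeq promoter table, and for Cpa3 and promoter 2 of Gata2 it lies inside the gene span given elsewhere, which reaches farther upstream.
Alas2: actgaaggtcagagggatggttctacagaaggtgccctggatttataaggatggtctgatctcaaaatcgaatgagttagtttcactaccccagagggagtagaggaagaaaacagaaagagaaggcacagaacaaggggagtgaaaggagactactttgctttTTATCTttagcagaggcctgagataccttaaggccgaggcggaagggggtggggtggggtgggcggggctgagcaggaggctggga
Hba-a1: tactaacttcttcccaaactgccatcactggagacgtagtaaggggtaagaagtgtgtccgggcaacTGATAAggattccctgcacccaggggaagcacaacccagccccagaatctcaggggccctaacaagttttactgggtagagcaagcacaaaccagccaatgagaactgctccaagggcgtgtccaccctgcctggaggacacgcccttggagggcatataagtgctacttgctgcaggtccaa
Csf2rb2: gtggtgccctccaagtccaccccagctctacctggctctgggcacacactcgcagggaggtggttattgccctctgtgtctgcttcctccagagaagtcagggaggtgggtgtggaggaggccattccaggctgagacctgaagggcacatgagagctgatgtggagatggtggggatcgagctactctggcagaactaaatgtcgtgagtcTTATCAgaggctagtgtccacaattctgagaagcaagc
Gata2 promoter 1: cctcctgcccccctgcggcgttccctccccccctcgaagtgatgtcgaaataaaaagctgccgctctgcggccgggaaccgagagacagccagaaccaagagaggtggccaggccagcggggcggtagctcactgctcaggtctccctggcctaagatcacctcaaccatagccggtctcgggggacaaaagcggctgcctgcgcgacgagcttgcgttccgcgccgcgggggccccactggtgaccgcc
Gata2 promoter 2: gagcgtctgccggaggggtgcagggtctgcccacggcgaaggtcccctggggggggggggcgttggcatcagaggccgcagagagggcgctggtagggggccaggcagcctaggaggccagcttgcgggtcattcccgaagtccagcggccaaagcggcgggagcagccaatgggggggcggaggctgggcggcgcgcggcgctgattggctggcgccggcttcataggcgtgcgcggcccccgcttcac
Cpa3: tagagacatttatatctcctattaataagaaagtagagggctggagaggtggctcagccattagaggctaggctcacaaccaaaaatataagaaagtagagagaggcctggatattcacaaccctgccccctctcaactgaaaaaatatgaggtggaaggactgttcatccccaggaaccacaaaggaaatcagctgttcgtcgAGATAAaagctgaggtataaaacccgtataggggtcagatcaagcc

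The Alas2 match begins 86 bases upstream of the start, that of Hba-a1 183, that of Csf2rb2 38 and that of Cpa3 46 bases upstream. Neither Gata2 promoter has one. Matches thus occur in promoters of genes that were higher and in that of a gene that was lower. In windows of 250 bases before to 50 after the start, the table held promoters of 209 of the 277 higher genes and of 216 of the 296 lower genes. One or both GATA words were in 17.1% of 280 promoters of higher genes, 11.7% of 300 promoters of lower genes and 9.47% of 7743 promoters of the other tested genes. Over all 32851 promoters of the table the share was 18.6%. The word CCNCNCCC, which holds the core read by KLF1, was in 74.6% of promoters of higher genes, 70.3% of those of lower genes and 67.2% of the others (49.5% over all), and the E-box CACGTG in 11.8%, 12% and 10.9% of the same promoters (7.15% over all), either strand counted. GGAAGT, a word read by ETS factors such as PU.1, was in 18.9% of promoters of higher genes, 26.3% of those of lower genes and 31.1% of the others (23.8% over all). A promoter counted once for each word it held, and words could overlap. These are matches of letters and not binding sites, and distal enhancers lie outside the windows.

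The adult genes Hbb-b1, Hbb-b2, Hba-a1 and Hba-a2 were the most abundant at 24 h of the higher genes outside small RNA and predicted loci. Of 6 tested globins all were at least 2-fold higher at 24 h, against 3.38% of all genes, with a median log2 ratio of 3.45 beside -0.12 for all genes. Of the beta genes, Hbb-b2 stood at 6783 FPKM at 24 h, against 366 FPKM at 0 h (4.21). Of the alpha genes, Hba-a1 stood at 2827 FPKM at 24 h, against 111 FPKM at 0 h (4.66) and Hba-a2 at 1369.5 FPKM at 24 h, against 245 FPKM at 0 h (2.48). Hba-a1 and Hba-a2 are near-identical, as are Hbb-b1 and Hbb-b2, so the split of reads within each pair is uncertain. The embryonic beta-like gene Hbb-bh1 stood at 6.37 FPKM at 24 h, against 0.146 FPKM at 0 h (2.69) and the theta-globin gene Hbq1b at 6.20 FPKM at 24 h, against 0.943 FPKM at 0 h (1.89). The embryonic genes Hbb-y and Hba-x reached only 0.266 and 0.277 FPKM at 24 h and were listed at 0 at 0 h. The globin sum was 24121 FPKM at 24 h, against 1252 FPKM at 0 h, or 4.85% and 0.257% of the FPKM outside small and predicted loci. At 24 h Hbb-b1 was the most abundant gene outside those loci, above Eef1a1, the elongation factor gene, at 7714 FPKM at 24 h, against 8194 FPKM at 0 h, and 8 of the 10 most abundant genes, among them Eef1a1, Rplp1 and Ptma, were within 2-fold.

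Heme synthesis enzymes were among the groups with higher levels at 24 h. Of the 9, 5 were at least 2-fold higher and none lower (median 1.35). With ratios centred on their median, 8 of the 9 were higher, beside 396 of all 8964 genes. Alas2 (chrX:150547417-150570622), the erythroid enzyme of the first and rate-limiting step, stood at 123 FPKM at 24 h, against 2.62 FPKM at 0 h (5.10). Alas1, the enzyme of the same step in other tissues, stood at 4.38 FPKM at 24 h, against 6.85 FPKM at 0 h (-0.54). So the erythroid form was above the general form at 24 h and below it at 0 h. Along the path, Alad (porphobilinogen synthase) stood at 74.6 FPKM at 24 h, against 16.3 FPKM at 0 h (2.12) and Uros, the enzyme that closes the ring, at 41.5 FPKM at 24 h, against 11.4 FPKM at 0 h (1.77). Ppox, the oxidase before the last step, stood at 34.9 FPKM at 24 h, against 9.26 FPKM at 0 h (1.81). Besides Alas1, the enzymes within 2-fold lay just under that cut and were detected well at both times. Urod stood at 123 FPKM at 24 h, against 65.6 FPKM at 0 h (0.90), Cpox at 339.5 FPKM at 24 h, against 172 FPKM at 0 h (0.98) and Fech, which inserts the iron, at 133 FPKM at 24 h, against 68.4 FPKM at 0 h (0.95).

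Carriers and proteins that serve heme synthesis in the mitochondrion were split. Of 15 tested, 5 were at least 2-fold higher and none lower (median 0.52). Abcb10, an inner membrane transporter needed for heme synthesis, stood at 219 FPKM at 24 h, against 23.5 FPKM at 0 h (3.17). Slc25a37 (mitoferrin 1), which imports iron, stood at 29.1 FPKM at 24 h, against 4.19 FPKM at 0 h (2.54), and Tmem14c, a carrier of porphyrin precursors, at 527 FPKM at 24 h, against 95.9 FPKM at 0 h (2.44). Slc25a38, a carrier of glycine, stood at 58.6 FPKM at 24 h, against 20.2 FPKM at 0 h (1.49). The genes that assemble iron-sulfur clusters did not pass 2-fold. Among them Nfs1 stood at 37.2 FPKM at 24 h, against 41.2 FPKM at 0 h (-0.14) and Hscb at 36.6 FPKM at 24 h, against 41.1 FPKM at 0 h (-0.16), while Slc25a28, the mitoferrin of other tissues, stood at 8.17 FPKM at 24 h, against 9.65 FPKM at 0 h (-0.22).

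Among partners of heme and globin, 3 of 9 tested genes were at least 2-fold higher and none lower (median 0.36). Hebp1, a heme-binding protein gene, stood at 134 FPKM at 24 h, against 11.02 FPKM at 0 h (3.49). Eif2ak1 (HRI), the kinase that halts globin translation when heme is short, stood at 39.6 FPKM at 24 h, against 16.0 FPKM at 0 h (1.25), and Blvrb, a biliverdin reductase gene, at 422 FPKM at 24 h, against 191 FPKM at 0 h (1.14). Of genes of cellular iron uptake and storage, 1 of 13 was higher and 1 lower. The median was -0.25 beside -0.12 for all genes, and 0.81 beside 0.83 on TPM scaling. The higher gene was Ncoa4, which carries ferritin to its breakdown, at 109 FPKM at 24 h, against 42.5 FPKM at 0 h (1.34), and the lower gene was Tfr2, the second transferrin receptor, at 19.9 FPKM at 24 h, against 55.1 FPKM at 0 h (-1.42). Tfrc, the main transferrin receptor, was among the abundant genes at both times, at 516 FPKM at 24 h, against 292 FPKM at 0 h (0.82). Fth1, the ferritin heavy chain, stood at 437 FPKM at 24 h, against 619 FPKM at 0 h (-0.50).

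The membrane skeleton held more higher genes than any other list. Of 14 tested genes of the membrane skeleton and its anchors, 10 were at least 2-fold higher and none lower (median 1.17). Slc4a1 (chr11:102348820-102365281), the anion exchanger to which the skeleton is tied, stood at 40.7 FPKM at 24 h, against 0.235 FPKM at 0 h (5.08). Dmtn (dematin), which bundles actin at the skeleton, stood at 11.9 FPKM at 24 h, against 0.168 FPKM at 0 h (3.47), and Sptb, the beta-spectrin gene, at 227 FPKM at 24 h, against 34.3 FPKM at 0 h (2.69). Actb, the actin gene, stood at 1379 FPKM at 24 h, against 1384 FPKM at 0 h (-0.0047), and Tpm3, a tropomyosin gene, at 79.2 FPKM at 24 h, against 137 FPKM at 0 h (-0.78).

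Glycoproteins and blood group proteins of the red cell surface had 5 of 13 tested members at least 2-fold higher and none lower (median 0.56). Icam4, an adhesion molecule of erythroblasts, stood at 52.4 FPKM at 24 h, against 10.8 FPKM at 0 h (2.18), Gypc (glycophorin C) at 53.3 FPKM at 24 h, against 13.9 FPKM at 0 h (1.86) and Rhd at 50.8 FPKM at 24 h, against 13.6 FPKM at 0 h (1.83). At the other end were Cd44, an adhesion molecule that erythroblasts lose as they mature, at 11.98 FPKM at 24 h, against 19.3 FPKM at 0 h (-0.65), and Cd55, a complement regulator, at 9.25 FPKM at 24 h, against 14.4 FPKM at 0 h (-0.58). Transporters and channels of the red cell had 7 of 19 tested members higher and 1 lower (median 0.44). Slc38a5, a carrier of neutral amino acids, stood at 10.3 FPKM at 24 h, against 0.152 FPKM at 0 h (3.29), and Slc25a21, a mitochondrial oxodicarboxylate carrier gene, at 44.3 FPKM at 24 h, against 10.2 FPKM at 0 h (2.02). Slc16a1, the monocarboxylate transporter MCT1, was the lower member, at 26.8 FPKM at 24 h, against 59.3 FPKM at 0 h (-1.12).

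Transcription factors of the erythroid program were detected at 0 h and most were within 2-fold. Of 20 tested, 4 were at least 2-fold higher and 1 lower (median 0.24). Zfpm1, the GATA1 cofactor FOG1, stood at 101 FPKM at 24 h, against 39.9 FPKM at 0 h (1.32), Lmo2, the bridging protein of the GATA1 complex, at 72.3 FPKM at 24 h, against 30.7 FPKM at 0 h (1.21) and Klf1 at 116 FPKM at 24 h, against 51.0 FPKM at 0 h (1.17). Foxo3, a factor of late maturation, stood at 39.7 FPKM at 24 h, against 17.7 FPKM at 0 h (1.13). Tal1 and its E-protein partner Tcf3, members of the same complex, stood at 28.7 and 53.9 FPKM at 24 h, against 43.5 and 95.7 FPKM at 0 h (-0.58 and -0.82). Myb, a factor of proliferating progenitors, was the lower member, at 35.3 FPKM at 24 h, against 87.6 FPKM at 0 h (-1.29). Gata1 itself stood at 63.7 FPKM at 24 h, against 46.7 FPKM at 0 h (0.44), and reads of the introduced fusion cannot be told apart from those of the cell's own gene in this table.

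**Figure D3:**
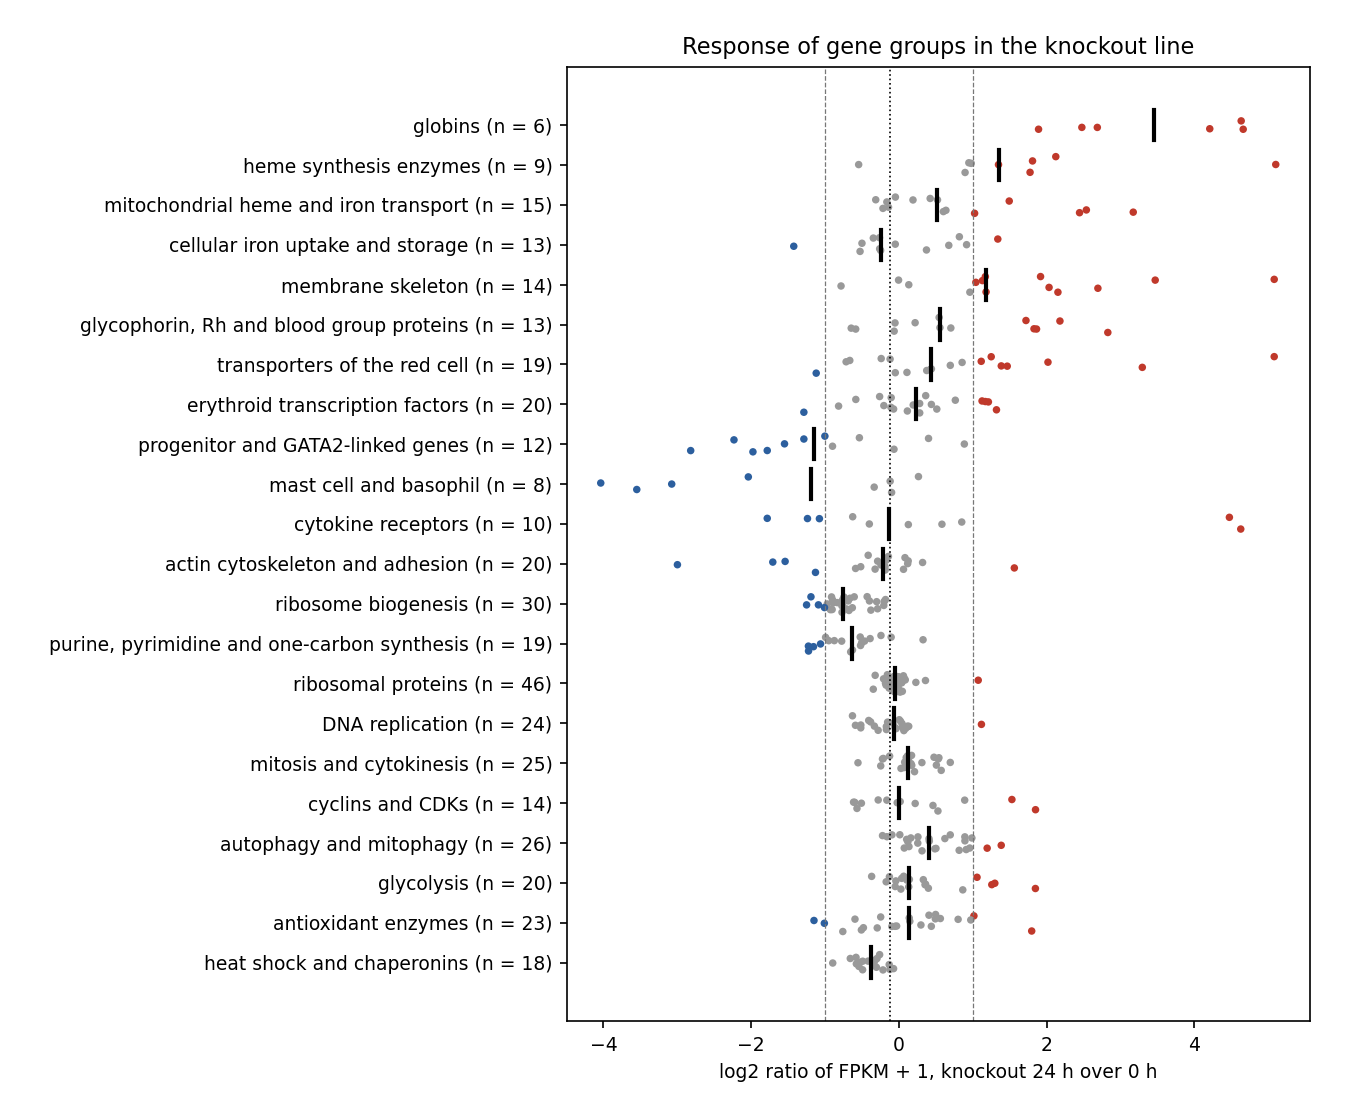
Log2 ratio of FPKM + 1, knockout 24 h over 0 h (horizontal axis), for each tested member (point) of 22 gene groups, with the group's median as a black bar. Dashed lines mark 2-fold and the dotted line the all-gene median of -0.12; the globin median is 3.45 and that of ribosome biogenesis -0.75.

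Of 12 tested progenitor genes and genes tied to GATA2, 7 were at least 2-fold lower and none higher (median -1.14, and -0.11 on TPM scaling with 3 lower). Gata2 had the lowest ratio of the list. Kit, the receptor of SCF, stood at 17.1 FPKM at 24 h, against 61.3 FPKM at 0 h (-1.78) and Erg, an ETS factor of stem cells, at 0.47 FPKM at 24 h, against 4.78 FPKM at 0 h (-1.98). Vim, the intermediate filament gene that red cells switch off, stood at 0.865 FPKM at 24 h, against 7.76 FPKM at 0 h (-2.23). Myc was at the limit, at 8.40 FPKM at 24 h, against 17.8 FPKM at 0 h (-1.002, and 0.0050 on TPM scaling). Spi1, which encodes the myeloid factor PU.1, lay above 0, at 23.9 FPKM at 24 h, against 12.5 FPKM at 0 h (0.89), as did Runx1, the blood stem cell factor that the study set beside CHD7, at 7.24 FPKM at 24 h, against 5.24 FPKM at 0 h (0.40).

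Mast cell and basophil genes had the lowest median of the 44 lists with tested members, in libraries with the proteases Mcpt8, Mcpt4 and Tpsb2 at 0. Of 8 tested members 4 were at least 2-fold lower and none higher (median -1.19, and -0.57 on TPM scaling). Cpa3 (chr3:20215616-20242209), mast cell carboxypeptidase, stood at 0.561 FPKM at 24 h, against 24.6 FPKM at 0 h (-4.03), and Ms4a2 (chr19:11615517-11623790), the beta chain of the IgE receptor, at 0.742 FPKM at 24 h, against 19.4 FPKM at 0 h (-3.55). Il1rl1 (chr1:40404864-40465418), the IL-33 receptor ST2, stood at 1.45 FPKM at 24 h, against 19.6 FPKM at 0 h (-3.07), and Rgs13, a regulator of G protein signalling, at 0.045 FPKM at 24 h, against 3.29 FPKM at 0 h (-2.04). The other 4 members were within 2-fold, for example Hdc, histidine decarboxylase, at 2.56 FPKM at 24 h, against 1.96 FPKM at 0 h (0.26) and Srgn, the granule proteoglycan gene, at 4.83 FPKM at 24 h, against 6.35 FPKM at 0 h (-0.33). Fcer1a, the alpha chain of the IgE receptor, was at 0 FPKM at 24 h and 0.075 FPKM at 0 h.

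Of the eosinophil granule genes both tested members were higher, Prg2 as above and Prg3 at 10.4 FPKM at 24 h, against 2.88 FPKM at 0 h (1.56). Epx, eosinophil peroxidase, was at 0.238 FPKM at 24 h, against 0.025 FPKM at 0 h, and Ear2 and Ear6, the ribonucleases, were at 0 at both times. Among megakaryocyte genes 2 of 6 were higher and none lower (median 0.39). They were Tbxas1, thromboxane synthase, at 6.93 FPKM at 24 h, against 0.355 FPKM at 0 h (2.55), and Tubb1, the platelet beta-tubulin, at 3.17 FPKM at 24 h and listed at 0 at 0 h. Pf4 stood at 0.998 FPKM at 24 h, against 2.91 FPKM at 0 h (-0.97) and Gp9 at 4.01 FPKM at 24 h, against 2.001 FPKM at 0 h (0.74). Of 3 tested myeloid genes, Lyz2 (lysozyme) was lower, at 1.48 FPKM at 24 h, against 4.78 FPKM at 0 h (-1.22), while Cebpe stood at 9.42 FPKM at 24 h, against 6.55 FPKM at 0 h (0.46) and Cebpb at 23.4 FPKM at 24 h, against 30.9 FPKM at 0 h (-0.39).

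Of 10 tested cytokine receptors, 2 were at least 2-fold higher and 3 lower (median -0.14, and 0.72 on TPM scaling with none lower). The higher ones were Csf2rb and its paralog Csf2rb2 (chr15:78282507-78305721), the IL-3 specific beta chain of the mouse, at 38.7 FPKM at 24 h, against 0.788 FPKM at 0 h (4.47). They lie next to each other on chromosome 15 and resemble each other in sequence, so reads can be shared between them. Their alpha partner Il3ra stood at 3.82 FPKM at 24 h, against 3.41 FPKM at 0 h (0.13). The lower ones were Kit, as above, and both chains of the interferon-gamma receptor, Ifngr1 at 1.90 FPKM at 24 h, against 5.83 FPKM at 0 h (-1.24) and Ifngr2 at 3.66 FPKM at 24 h, against 8.83 FPKM at 0 h (-1.08). Epor, the erythropoietin receptor, stood at 30.7 FPKM at 24 h, against 20.1 FPKM at 0 h (0.58). Downstream, 1 of 15 JAK-STAT and feedback genes was higher and 1 lower (median -0.087). Pim1, a survival kinase and STAT5 target, stood at 127 FPKM at 24 h, against 38.2 FPKM at 0 h (1.71), Stat5a at 21.5 FPKM at 24 h, against 50.8 FPKM at 0 h (-1.20) and the feedback inhibitor Socs2 at 14.9 FPKM at 24 h, against 29.4 FPKM at 0 h (-0.94).

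None of 30 genes of ribosome biogenesis was above 0, and 4 were at least 2-fold lower (median -0.75). On TPM scaling 27 of the 30 were above 0 and the median was 0.32, beside 0.83 for all genes. Heatr1 and Wdr43, factors of the small subunit processome, stood at 19.1 and 41.9 FPKM at 24 h, against 46.9 and 90.3 FPKM at 0 h (-1.25 and -1.09). Polr1b, the second subunit of RNA polymerase I, stood at 13.6 FPKM at 24 h, against 32.4 FPKM at 0 h (-1.19), and Wdr12 at 40 FPKM at 24 h, against 81.4 FPKM at 0 h (-1.01, and 0.064 on TPM scaling). At the other end of the list were Bms1 at 49.6 FPKM at 24 h, against 56.4 FPKM at 0 h (-0.18) and Nob1 at 13.9 FPKM at 24 h, against 16.1 FPKM at 0 h (-0.20).

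Most ribosomal proteins themselves were at close levels at both times. Of 46 tested, 1 was at least 2-fold higher and none lower. The median was -0.050 beside -0.12 for all genes, and 1.04 beside 0.83 on TPM scaling. The exception in this list, Rps16, at 889 FPKM at 24 h, against 422 FPKM at 0 h (1.07), belongs to a family with many similar copies. Of 77 cytosolic ribosomal proteins picked by symbol after the values were seen, 2 were higher, Rps16 and Rps27, and none lower. Rps27, outside this list, had 2.10 in the knockout and -1.46 in wild type. Rplp1, the most abundant of the 46, stood at 5726 FPKM at 24 h, against 6614 FPKM at 0 h (-0.21). Purine, pyrimidine and one-carbon synthesis had 4 of 19 tested genes lower and none higher (median -0.63, and 0.43 on TPM scaling with none lower). Mthfd1 and Shmt1, cytosolic folate enzymes, stood at 92.5 and 11.1 FPKM at 24 h, against 218 and 27.2 FPKM at 0 h (-1.22 and -1.22). Gart and Atic, enzymes of purine synthesis, stood at 65.6 and 72.6 FPKM at 24 h, against 147 and 152 FPKM at 0 h (-1.16 and -1.06), and Atic was at 0.020 on TPM scaling. Mthfd2, the mitochondrial folate enzyme, lay above 0, at 123 FPKM at 24 h, against 98.2 FPKM at 0 h (0.33). The 10 polyamine genes and the 21 aminoacyl-tRNA synthetases had none beyond 2-fold (medians -0.17 each, beside -0.12 for all genes). Heat shock proteins and chaperonins had none of 18, with Hspd1 at 268 FPKM at 24 h, against 499 FPKM at 0 h (-0.90). All 18 were below 0 as deposited (median -0.38). On TPM scaling all 18 were above 0, with a median of 0.71 beside 0.83 for all genes.

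Of 24 DNA replication genes 1 was higher and none lower (median -0.066). It was Cdc6, the licensing factor, at 52.3 FPKM at 24 h, against 23.6 FPKM at 0 h (1.12), while Rrm1, ribonucleotide reductase, stood at 142 FPKM at 24 h, against 129.8 FPKM at 0 h (0.13). None of 25 genes of mitosis and cytokinesis passed 2-fold in either direction (median 0.12), with Nusap1 at 28.2 FPKM at 24 h, against 17.0 FPKM at 0 h (0.70) and Bub1b at 57.5 FPKM at 24 h, against 84.9 FPKM at 0 h (-0.55) at the ends. Among 14 cyclins, CDKs and CDC25 phosphatases, 2 were higher and none lower (median -0.0029). Ccnd3, the cyclin that sets the number of divisions in erythroblasts, stood at 143 FPKM at 24 h, against 48.7 FPKM at 0 h (1.53). Its relative Ccnd2 stood at 46.3 FPKM at 24 h, against 70.5 FPKM at 0 h (-0.60). Ccnd3 was above Ccnd2 at 24 h and below it at 0 h. Cdc25b stood at 5.91 FPKM at 24 h, against 0.92 FPKM at 0 h (1.85).

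Genes that hold back division had 3 of 13 tested members higher and none lower (median 0.18). Cdkn1b, the CDK inhibitor p27, stood at 27.1 FPKM at 24 h, against 9.78 FPKM at 0 h (1.38), Ccng2, an unusual cyclin of arrested cells, at 26.8 FPKM at 24 h, against 10.5 FPKM at 0 h (1.27) and Btg2 at 7.23 FPKM at 24 h, against 0.441 FPKM at 0 h (2.51). In the MYC-MAX network, 1 of 10 was lower, Myc itself (median -0.10), and the antagonists Mxd1 and Mxd4 stood at 2.98 and 11.2 FPKM at 24 h, against 1.13 and 6.94 FPKM at 0 h (0.90 and 0.62). Of 16 tested p53 targets Btg2 alone was higher (median 0.071) and none was lower. None of 12 BCL2 family genes passed 2-fold (median 0.069), with Bcl2l1 (BCL-XL), a survival gene of late erythroblasts, at 6.13 FPKM at 24 h, against 3.22 FPKM at 0 h (0.76).

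Of 26 tested autophagy and mitophagy genes, which serve the clearance of organelles, 23 were above 0, 2 were at least 2-fold higher and none was lower (median 0.41). The higher ones were Atg4d, a protease that processes ATG8 proteins, at 12.8 FPKM at 24 h, against 4.28 FPKM at 0 h (1.38), and Map1lc3a at 5.49 FPKM at 24 h, against 1.83 FPKM at 0 h (1.19). Pink1, the mitophagy kinase, stood at 14.5 FPKM at 24 h, against 6.97 FPKM at 0 h (0.96). With ratios centred on their median, 7 of the 26 were at least 2-fold higher, beside 396 of all 8964 genes. Of 19 lysosomal genes Ctsb (cathepsin B) was higher, at 23.3 FPKM at 24 h, against 10.7 FPKM at 0 h (1.05), and Ctse (cathepsin E) lower, at 49.9 FPKM at 24 h, against 129.9 FPKM at 0 h (-1.36), with a median of 0.11. In the ubiquitin system of late erythroblasts 2 of 20 were higher and none lower (median 0.21), namely Ube2l6, an E2 enzyme, at 40.5 FPKM at 24 h, against 6.83 FPKM at 0 h (2.41), and Trim10 at 23.6 FPKM at 24 h, against 6.29 FPKM at 0 h (1.75).

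Metabolism and protection against oxidants showed single genes beyond 2-fold. In glycolysis 4 of 20 were higher and none lower (median 0.14). Pklr, the red cell pyruvate kinase, stood at 69.8 FPKM at 24 h, against 28.6 FPKM at 0 h (1.26) and Hk1, the hexokinase of red cells, at 63.0 FPKM at 24 h, against 29.8 FPKM at 0 h (1.06), with Pfkfb4 and Aldoc at 8.11 and 15.4 FPKM at 24 h, against 1.53 and 5.66 FPKM at 0 h (1.85 and 1.30). Among 23 antioxidant enzymes 2 were higher and 2 lower (median 0.14). Prdx2, the most abundant peroxiredoxin of red cells, stood at 979.5 FPKM at 24 h, against 484 FPKM at 0 h (1.02) and Prdx6 at 462 FPKM at 24 h, against 132 FPKM at 0 h (1.80). The lower ones were Gsr, glutathione reductase, at 28.7 FPKM at 24 h, against 64.8 FPKM at 0 h (-1.15) and Prdx4 at 28.02 FPKM at 24 h, against 57.4 FPKM at 0 h (-1.01, and 0.055 on TPM scaling). Cholesterol synthesis had 1 of 18 higher, Idi1 at 156 FPKM at 24 h, against 70.5 FPKM at 0 h (1.13), and 1 lower, Dhcr7 at 6.33 FPKM at 24 h, against 14.1 FPKM at 0 h (-1.04), with a median of 0.16. The integrated stress response had 2 of 20 higher and 2 lower (median -0.15), with Ppp1r15a, which ends the response, at 37.1 FPKM at 24 h, against 14.4 FPKM at 0 h (1.31) and Slc7a11, the cystine importer, at 1.46 FPKM at 24 h, against 4.75 FPKM at 0 h (-1.22).

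The actin cytoskeleton of motile cells had 1 of 20 tested genes higher and 4 lower (median -0.22, and 0.86 on TPM scaling with 1 lower). Flna (chrX:74223461-74249854), the actin crosslinker filamin A, stood at 5.39 FPKM at 24 h, against 50.03 FPKM at 0 h (-2.997). Myo1g and Coro1a, genes of blood cell motility, stood at 8.25 and 3.57 FPKM at 24 h, against 29.2 and 12.3 FPKM at 0 h (-1.71 and -1.54), and Msn (moesin) at 12.4 FPKM at 24 h, against 28.4 FPKM at 0 h (-1.13). The higher gene was Gsn, the actin-severing gelsolin, at 9.79 FPKM at 24 h, against 2.65 FPKM at 0 h (1.56). Of 5 integrins none passed 2-fold (median -0.022), with Itgb1 at 46.6 FPKM at 24 h, against 93.4 FPKM at 0 h (-0.99) and Itgb2 at 15.5 FPKM at 24 h, against 7.47 FPKM at 0 h (0.96). Tetraspanins had 1 of 8 higher, Tspan33 at 53.6 FPKM at 24 h, against 11.3 FPKM at 0 h (2.15), and 1 lower, Tspan4 at 1.75 FPKM at 24 h, against 16.4 FPKM at 0 h (-2.66), with a median of -0.27. Of 5 tested carbonic anhydrases and claudins, Cldn13 was higher, at 89.1 FPKM at 24 h, against 15.4 FPKM at 0 h (2.46), and Car1 lower, whereas Car2 stood at 579 FPKM at 24 h, against 489.6 FPKM at 0 h (0.24). The median of this list was -0.38, or -0.26 relative to all genes, and it turned to 0.37 relative to all genes among those averaging 5 FPKM or more and to 0.38 with at least 5 FPKM in the higher knockout library, where fewer members were left.

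None of the 8 tested chromodomain helicases, the family of the deleted gene, passed 2-fold in the knockout, against 7.02% of all genes. With 8 genes, none is near that share. Their median was -0.25, beside -0.12 for all genes, and 0.58 beside 0.83 on TPM scaling. Chd4, the NuRD helicase, stood at 59.0 FPKM at 24 h, against 108 FPKM at 0 h (-0.86) and Chd3 at 4.56 FPKM at 24 h, against 9.16 FPKM at 0 h (-0.87), while Chd8, of the same subfamily as Chd7, stood at 8.91 FPKM at 24 h, against 9.06 FPKM at 0 h (-0.022). Of 12 CBF and ETS factors 2 were lower and none higher (median -0.35, and 0.62 on TPM scaling with 1 lower), namely Erg, as above, and Cbfb, the partner subunit of RUNX1, at 11.5 FPKM at 24 h, against 31.5 FPKM at 0 h (-1.37). Of 24 genes of chromatin condensation and histone variants, 2 were lower and none higher (median -0.11). They were H2afy (macroH2A) at 35.9 FPKM at 24 h, against 89.2 FPKM at 0 h (-1.29) and Dnmt3b, a DNA methyltransferase, at 3.46 FPKM at 24 h, against 8.60 FPKM at 0 h (-1.11). The 9 abundant non-coding RNAs had none beyond 2-fold (median -0.17), with Malat1 at 304 FPKM at 24 h, against 234 FPKM at 0 h (0.38).

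Wild type gave the same comparison in libraries that the knockout comparison does not share. There 167 genes were at least 2-fold higher at 24 h (1.86%) and 95 lower (1.06%), or 2.92% in all, with a median of -0.11, percentiles of -0.64 and 0.56 and 83.9% of genes within 0.5 of 0. Without small RNA and predicted loci 140 were higher (1.67%) and 80 lower (0.955%), or 2.62% in all. Of the 303 genes higher in the knockout, 139 were also higher in wild type (45.9% of the knockout list and 83.2% of the wild-type list), and 69 of the 326 lower genes were also lower (21.2% and 72.6%). The wild-type ratio had the same sign for 296 of the 303 and 314 of the 326. It was nearer to 0, or opposite, for 283 of the 303 and 318 of the 326, and since these genes were chosen by their knockout ratio, that count is a description and carries no test. Their median log2 ratio was 1.503 in the knockout and 0.95 in wild type for the higher genes, and -1.22 in the knockout and -0.75 in wild type for the lower genes. Whether the responses differ between genotypes was not tested, with 1 library in each group.

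Side by side, Csf2rb2 had log2 ratios of 4.47 in the knockout and 2.31 in wild type, where it stood at 6.04 FPKM at 24 h, against 0.422 FPKM at 0 h. Csf2rb had 4.63 in the knockout and 3.52 in wild type, and Prg2 5.19 and 3.58. For this receptor pair and for Prg2 the wild-type ratio was the smaller, which is not particular to them. Of the 303 genes higher in the knockout, chosen by their knockout ratio, 283 had a wild-type ratio nearer to 0, or opposite. Hbb-b1 had 4.63 in the knockout and 4.59 in wild type, and Hba-a1 4.66 and 3.79, whereas Hba-a2, whose share of reads with Hba-a1 is uncertain, had 2.48 and 3.40. Gata2 had -2.82 in the knockout and -1.81 in wild type, Kit -1.78 and -0.92, Flna -2.997 and -1.46, and Cpa3 -4.03 and -2.49. Alox5, 5-lipoxygenase, and Srgn were lower at 24 h in wild type (-1.27 and -1.03), with -0.12 and -0.33 in the knockout. By list, erythroid transcription factors had 4 of 20 members higher in the knockout and none in wild type. In wild type these 4 lay above 0 and under the cut, with Klf1 at 0.87, Lmo2 at 0.86, Zfpm1 at 0.75 and Foxo3 at 0.73. Progenitor genes had 7 of 12 lower in the knockout and 3 in wild type, and mast cell and basophil genes 4 of 8 and 6. Over all genes, 3.38% were higher and 3.64% lower in the knockout, against 1.86% and 1.06% in wild type.

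**Figure D4:**
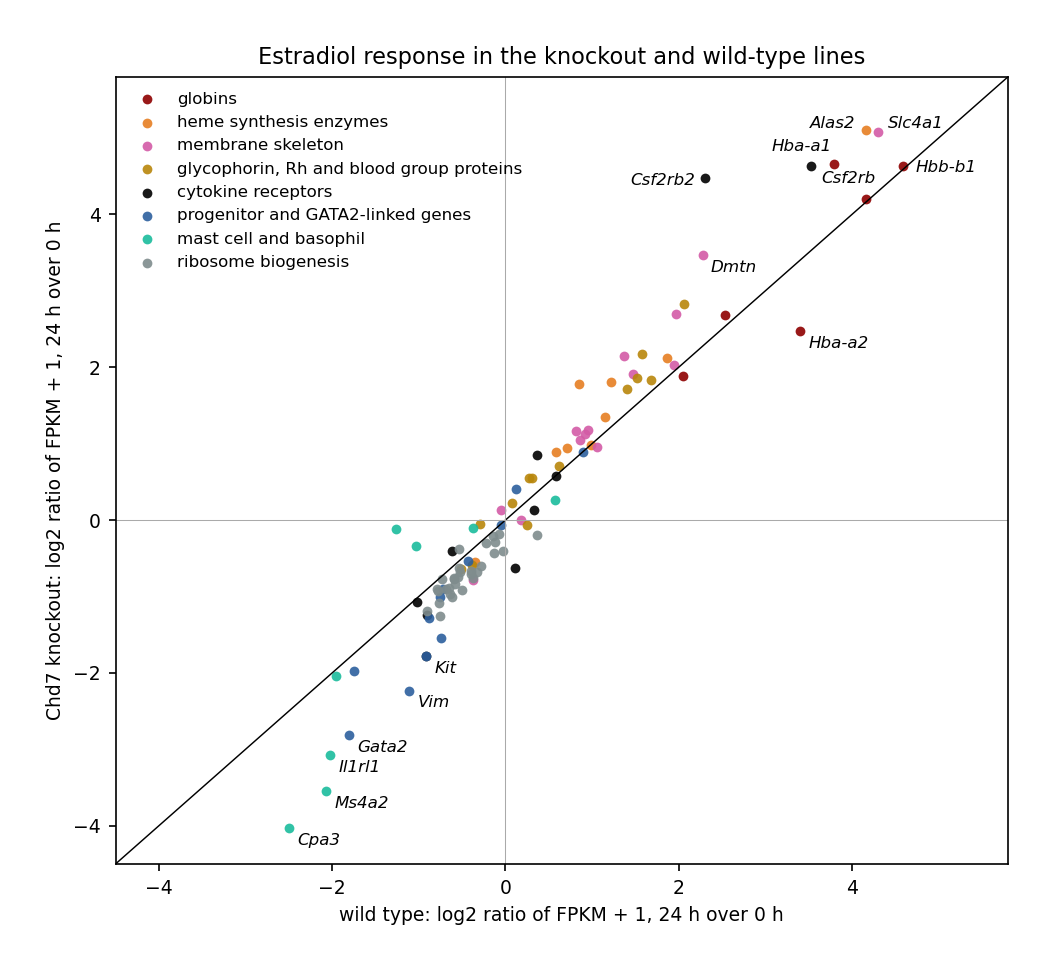
Log2 ratio of FPKM + 1, 24 h over 0 h, in the Chd7 knockout (vertical axis) against wild type (horizontal axis) for tested members of 8 gene groups, 1 point a gene, with the line of equal ratios. Csf2rb2 (4.47 in the knockout, 2.31 in wild type) lies above the line, Hba-a2 (2.48 and 3.40) below it and Cpa3 (-4.03 and -2.49) at the lower end.

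Beyond the ranks named by rule, the next 15 genes in each direction were looked at after their values were seen. On the higher side they included Il4, interleukin-4, at 46.2 FPKM at 24 h, against 4.72 FPKM at 0 h (3.04), and Fam132b, which encodes erythroferrone, the hormone by which erythroblasts lower hepcidin, at 11.3 FPKM at 24 h, against 1.09 FPKM at 0 h (2.56). Selenbp1, a selenium-binding protein gene, stood at 1117 FPKM at 24 h, against 162 FPKM at 0 h (2.77), its near copy Selenbp2 at 210.3 FPKM at 24 h, against 30.9 FPKM at 0 h (2.73), and Aqp3, an aquaglyceroporin gene, at 16.5 FPKM at 24 h, against 1.61 FPKM at 0 h (2.75). On the lower side they included Spn, which encodes the leukocyte sialoglycoprotein CD43, at 18.4 FPKM at 24 h, against 79.4 FPKM at 0 h (-2.05). Ptprcap, a partner of the phosphatase CD45, stood at 5.75 FPKM at 24 h, against 26.7 FPKM at 0 h (-2.04), and Abca1, the cholesterol exporter, at 3.33 FPKM at 24 h, against 14.9 FPKM at 0 h (-1.87). All 8 had the same sign in wild type, for example 2.44 for Il4, 2.72 for Aqp3 and -0.99 for Spn. Gata1, Il3ra, Fcer1a, Epx, Hbb-y and Hba-x were likewise named after their values were seen.

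Median ratios were close across chromosomes. By chromosome, small RNA and predicted loci left out, the median log2 ratio lay between -0.072 (chromosome 13) and -0.21 (chromosome X). Over all tested genes outside those loci 3.31% were higher and 3.53% lower. On chromosome 19, 1 of 311 tested genes was higher and 13 were lower, and on X 3 of 261 were higher, Alas2 and Slc38a5 among them, and 14 lower, Flna and Plp2 among them. On chromosome 5, where Kit, Ache and Cldn13 lie, 20 of 548 were higher and 13 lower. With small RNA and predicted loci kept and that chromosome left out, 282 genes were higher and 311 lower in all.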

How the data were processed

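Total RNA was prepared from equal numbers of cells for each of the 4 libraries, depleted of ribosomal RNA and turned into cDNA with random primers, per the labels' protocols. The authors deposited 1 table of FPKM per gene with a column for each library. FastQC, cutadapt, TopHat2 2.0.11, Cufflinks 2.2.1 and the build GRCm38 are named, per the submitters' processing notes. The sources used here give neither the annotation, nor the treatment of reads with several matches, nor how libraries were scaled. A second header line inside the table was dropped.

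Genes that averaged 1 FPKM or more across the 4 libraries were kept, and log2(FPKM + 1) at 0 h was subtracted from that at 24 h. This scale understates the change of low genes. A gene was called higher or lower at a log2 ratio of at least 1 in size. With 1 library a group no test was possible, and lists were described by counts and medians. Named genes were the 3 markers, the 15 most higher and 15 most lower genes with at least 5 FPKM in the higher knockout library (small RNA, predicted and histone loci left out), the 10 most abundant at 24 h, all members of lists of up to 8 and otherwise up to 4 members from each end of a list, with members beyond 2-fold against the sign of their list. The genes, the 45 lists and the tests were chosen with earlier results of these data known. The depth was read from the FPKM steps of genes with transcripts of at least 3 kb, where 56.1% to 63.1% of values came out whole within 0.1 fragment, against 20% for uniform values, so depth is approximate and counting intervals (95%) rest on it. Some members of the lists are counted but not reported here by name. The ratio and count steps were tested on simulated data. Of the alternatives, 10 were planned and 2 were chosen after seeing the data. Promoter and gene positions came from RefSeq (GRCm38.p6). Values were computed with pandas 2.3.3 and numpy 2.4.6 in Python 3.11.15, intervals with scipy 1.17.1, and figures drawn with matplotlib 3.10.9.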

Additional observations from a re-analysis of the deposited data

Results flagged for a closer look

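For 9 loci the 2 genotypes moved in opposite directions, each by at least 2-fold between 24 h and 0 h. With 1 library a group the differences were not tested. Lars2, a mitochondrial leucyl-tRNA synthetase, had a log2 ratio of 1.59 in the knockout (129.99 FPKM at 24 h, against 42.6 FPKM at 0 h) and -1.50 in wild type (9.05 FPKM at 24 h, against 27.4 FPKM at 0 h). Rps27, a ribosomal protein gene with near-identical copies, had 2.10 in the knockout (80.3 and 18.0 FPKM) and -1.46 in wild type (82.1 and 228 FPKM). The other 7 were small RNA loci. Scarna3b had 7.35 in the knockout and -2.01 in wild type, and Snord89 had 1.16 and -1.29. Snora31 had -1.32 in the knockout and 6.46 in wild type, and Mir6340 had -6.25 and 5.57. Mir6516 had -9.07 in the knockout and 6.74 in wild type, and Mir8099-1 and Mir8099-2, which share their values, had -4.35 and 3.74. Of these, Mir6340, Mir6516 and both Mir8099 loci were listed at 0 at 24 h in the knockout and at 0 h in wild type, Snora31 at 0 h in wild type and Scarna3b at 0 h in the knockout, so these ratios depend on the pseudocount.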

How the results depend on the processing

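The counts of 303 higher and 326 lower genes depended on the scale. A pseudocount of 5 FPKM gave 180 higher and 123 lower genes, and one of 0.1 FPKM gave 407 higher and 507 lower. TPM scaling, which raised the all-gene median by 0.95, gave 3043 higher and 39 lower. Its rise was not the same in all lists. The median went from -1.19 to -0.57 for mast cell and basophil genes, and from 1.35 to 2.43 for heme synthesis enzymes. The other planned settings gave 230 to 396 higher and 224 to 332 lower. Equal sums without small and predicted loci gave 284 and 350, and a minimum of 5 FPKM in the higher knockout library 271 and 279, both chosen after seeing the data. Relative to all genes, the median of the myeloid list became 0.17 among genes averaging 5 FPKM or more and 0.17 with 5 FPKM in the higher knockout library, and that of carbonic anhydrases and claudins 0.37 and 0.38, since fewer members were tested. On TPM scaling Myc came to 0.0050, Wdr12 to 0.064, Atic to 0.020 and Prdx4 to 0.055, and the cause was not tested beyond the shift of 0.95 that this scaling gives the median gene. Leaving out a replicate was not possible with 1 library a group. No paired analysis was possible because each group has 1 library. Depth limits what can be said of genes near 1 FPKM, where about 29.5 fragments stand behind a 2-kb transcript, and the spread between cultures is not measured.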

Other observations

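Families picked by symbol after the values were seen are given here as counts. Over all 8381 tested genes outside small RNA and predicted loci, 3.31% were higher and 3.53% lower, or 6.84% in all. A count near these shares, or none in a small family, is not a trait of that family. Of 214 zinc finger genes named Zfp, none was at least 2-fold higher and 3 were lower (Zfp36l2, Zfp623 and Zfp428). Of 137 solute carriers, 11 were higher and 12 lower. Of 50 genes named Atp, 5 were higher and none lower, namely Atp1b2, Atp8a1, Atp2b4, Atp6v0b and Atp6v0d1, ATPase subunits and pumps. Of 77 mitochondrial ribosomal proteins 1 was lower (Mrpl50), and of 32 DEAD-box helicases 1 was lower (Ddx21). None of 46 proteasome genes, 45 genes named Nduf, 39 named Usp and 19 nucleoporins was beyond 2-fold. Of the small RNA loci, Snord49a was at 0 FPKM in the knockout at 24 h, against 544038 FPKM at 0 h, and at 0 in both wild-type libraries. Snord47 stood at 90184 FPKM at 24 h, against 408668 FPKM at 0 h, and Snord104 at 13284 FPKM at 24 h and 0 at 0 h. Rmrp and Rpph1, the RNAs of RNase MRP and RNase P, stood at 55851 and 31092 FPKM at 24 h, against 58305 and 31888 FPKM at 0 h.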
